A study of Mus musculus with 6 samples.

Results

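Regions open in brown alone were merged intervals with an ATAC-seq peak in both brown adipocyte libraries and no peak in the 2 beige or the 2 white libraries. Overlapping or touching peak intervals of the 6 libraries were merged into 194496 regions, and 1707 of them met this rule, which is 0.878% of all. The members were thus chosen by the presence and absence of peaks in all 6 lists, so their peak strength is given as a description only. ATAC-seq marks DNA that a transposase can reach in nuclei, and a peak is a stretch where insertions exceed the local background of that library. All libraries came from wild type C57BL/6J male mice aged 3 to 4 weeks, whose stromal vascular fraction was cultured to contact inhibition and then differentiated into adipocytes for 7 days. The brown cultures were taken from brown adipose tissue and the beige and white cultures from inguinal fat. Brown and beige cultures received 5 µM dexamethasone, 0.5 mM isobutyl methylxanthine, 1 nM T3 and 1 µM rosiglitazone with insulin, whereas the white medium held 1 µM dexamethasone and 0.5 mM isobutyl methylxanthine with insulin and neither T3 nor rosiglitazone. By the labels, brown and beige libraries thus differed in depot but not in medium, although the insulin dose of the beige medium is not the same in the labels and in the study's methods, and depot and medium cannot be told apart between brown and white. The labels do not say whether the brown libraries were prepared together with the others, so depot and preparation cannot be told apart either. The lists held 109143 to 127490 peaks each and no read counts. The study's reporting summary gives total mapped reads for the beige and white libraries, which are fewer in beige. It gives none for the brown libraries, and these totals were not used here. The depth at the site of a missing peak is thus unknown. The cultures were mixed, and fewer nuclei of a type cannot be told apart from less open DNA per nucleus.

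Brown adipocytes burn fuel through the uncoupling protein Ucp1, and those of the classical interscapular depot descend largely from somite-derived precursors that share their origin with muscle and dorsal dermis. Adipocyte precursors keep a regional code of Zic, Hox, T-box and other developmental transcription factors after they are moved into culture, and Zic1 is a known marker of the brown depot in the mouse. Open regions that lie away from promoters often act as enhancers, where factors such as AP-1, TEAD, RUNX, EBF and C/EBP bind short sequence motifs.

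The sequences below show the members that the results turn on, from 100 bases before to 100 bases after the stronger brown summit, on the plus strand of mm10 (GRCm38.p6) in RefSeq. The first 4 lie within 29.959 kb of each other at Zic1 and Zic4, the next 2 are Hox and Ucp1 promoters, and the others are the strongest of all members, 2 distal members near genes with many members, and members near Tbx15 and Fabp3. Capitals mark matches to the motifs of the 5 families that were most frequent in the members relative to all merged regions. These were TEAD (ACATTCC), RUNX (TGTGGTT), AP-1 (TGANTCA), HOX/PBX (TGATTNAT) and EBF (TCCC and GGGA with 2 bases between), each searched on both strands, and a window in lower case throughout held none of them.
Zic1 promoter, chr9:91365815-91366015: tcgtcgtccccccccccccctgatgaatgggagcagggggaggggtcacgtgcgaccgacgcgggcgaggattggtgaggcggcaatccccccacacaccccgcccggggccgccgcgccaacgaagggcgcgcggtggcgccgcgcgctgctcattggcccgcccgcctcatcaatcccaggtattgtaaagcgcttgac
Zic1 at +12.7 kb, chr9:91352919-91353119, TEAD: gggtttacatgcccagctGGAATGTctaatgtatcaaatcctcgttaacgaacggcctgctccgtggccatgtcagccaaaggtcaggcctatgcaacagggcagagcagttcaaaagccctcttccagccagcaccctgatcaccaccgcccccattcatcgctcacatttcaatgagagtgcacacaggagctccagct
Zic1 at +14.6 kb, chr9:91351055-91351255, RUNX: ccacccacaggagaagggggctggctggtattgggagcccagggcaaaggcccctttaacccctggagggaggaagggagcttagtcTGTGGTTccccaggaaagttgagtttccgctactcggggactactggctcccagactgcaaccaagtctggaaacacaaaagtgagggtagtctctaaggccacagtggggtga
Zic4 intron, chr9:91380570-91380770, EBF: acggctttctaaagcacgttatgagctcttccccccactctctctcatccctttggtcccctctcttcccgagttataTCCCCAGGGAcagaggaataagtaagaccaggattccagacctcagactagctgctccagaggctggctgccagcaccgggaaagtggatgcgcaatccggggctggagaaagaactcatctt
Hoxa2 promoter, chr6:52165039-52165239: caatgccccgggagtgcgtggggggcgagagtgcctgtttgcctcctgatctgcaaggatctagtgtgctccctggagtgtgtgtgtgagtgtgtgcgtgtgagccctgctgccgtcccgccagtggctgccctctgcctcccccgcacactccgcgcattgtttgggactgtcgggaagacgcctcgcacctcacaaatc
Ucp1 promoter, chr8:83290128-83290328: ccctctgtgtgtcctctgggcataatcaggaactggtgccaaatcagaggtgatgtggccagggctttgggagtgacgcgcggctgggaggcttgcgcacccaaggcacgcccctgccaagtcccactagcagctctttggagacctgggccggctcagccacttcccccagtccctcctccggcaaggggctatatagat
Maml3 intron, chr3:52029791-52029991: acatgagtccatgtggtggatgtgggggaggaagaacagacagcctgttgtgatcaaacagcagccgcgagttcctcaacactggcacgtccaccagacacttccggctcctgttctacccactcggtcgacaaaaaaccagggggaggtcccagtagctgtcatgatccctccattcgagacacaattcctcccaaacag
Upstream of Cobl, chr11:12867674-12867874, AP-1, HOX/PBX and RUNX: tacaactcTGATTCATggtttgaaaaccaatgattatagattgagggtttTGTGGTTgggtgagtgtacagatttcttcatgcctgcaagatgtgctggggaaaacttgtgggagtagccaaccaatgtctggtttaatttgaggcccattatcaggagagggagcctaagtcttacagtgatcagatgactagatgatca
Upstream of Zfp703, chr8:26669629-26669829, TEAD: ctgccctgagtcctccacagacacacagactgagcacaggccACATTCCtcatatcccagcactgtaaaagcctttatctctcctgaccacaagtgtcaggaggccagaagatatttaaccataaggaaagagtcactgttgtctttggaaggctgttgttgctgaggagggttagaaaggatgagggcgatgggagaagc
Downstream of the Tbx15 start, chr3:99483359-99483559, AP-1 and TEAD: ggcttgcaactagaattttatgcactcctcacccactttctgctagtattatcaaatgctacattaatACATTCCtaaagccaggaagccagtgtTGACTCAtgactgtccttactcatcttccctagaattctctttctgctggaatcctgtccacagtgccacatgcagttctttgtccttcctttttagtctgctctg
Upstream of Fabp3, chr4:130306819-130307019, AP-1: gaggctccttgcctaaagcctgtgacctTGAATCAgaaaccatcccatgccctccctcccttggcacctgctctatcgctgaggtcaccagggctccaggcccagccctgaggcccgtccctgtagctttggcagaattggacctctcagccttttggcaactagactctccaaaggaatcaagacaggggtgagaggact

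The members were mostly weak regions, of usual width after merging but with peaks narrower than others of the same lists. Their width had a median of 256 bp, with quartiles of 214 and 310 bp and a range from 150 to 917 bp, against a median of 255 bp over all merged regions. The median was 222 bp in regions open in beige alone, 241 bp in white alone and 588 bp in all 6 libraries. Together the members covered 465.796 kb. In all, 1665 members consisted of 1 peak from each brown library, 38 of 3 peaks and 4 of 4 peaks. Peak strength was read as the −log10 q of the summit, which measures how unlikely the pileup is against the background of its own library and is not a scale shared between libraries. In brown replicate 1 the members had a median −log10 q of 5.52 (range 1.38 to 39.0) against 12.1 over all peaks of that list. In brown replicate 2 the median was 4.52 (range 1.37 to 34.6) against 9.39. Both summits of a member lay a median of 33 bp apart, and 86.2% of the pairs lay within 100 bp. Across the 1707 members the −log10 q of both libraries had a Spearman correlation of 0.279, with every point from these same 2 libraries. In 310 members both values were equal, to 4 decimals, to those of another member. Both values exceeded 5 in 509 members (29.8%) and exceeded 10 in 51, while 77 members (4.51%) had a value under 2 in at least 1 library.

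The rule cuts through a continuous range of strengths. Just inside it, the weakest member had a lower −log10 q of 1.37, where the authors' threshold is 1.30. Just outside it, 2417 regions had peaks in both brown libraries and in exactly 1 of the others, and the excluding peak had a median −log10 q of 5.12 (range 1.33 to 21.5). Beige replicate 2, whose list was the longest, gave the excluding peak in 1003 of them, beige replicate 1 in 566, white replicate 1 in 549 and white replicate 2 in 299. A further 8983 regions had a peak in brown replicate 1 alone and 13668 in brown replicate 2 alone. The corresponding regions open in both beige libraries alone numbered 3781, and those open in both white libraries alone 2381. The lower of both −log10 q values had a median of 3.99 in the members, 4.95 in the beige-alone and 4.07 in the white-alone regions, and of 19.8 for the brown libraries in the 58714 regions open in all 6. A beige or white peak lay within 250 bp of 208 members (12.2%) and within 1 kb of 458 (26.8%), while 40 members lay over 50 kb from any. The median distance to the nearest such peak was 3304 bp.

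**Figure D1:**
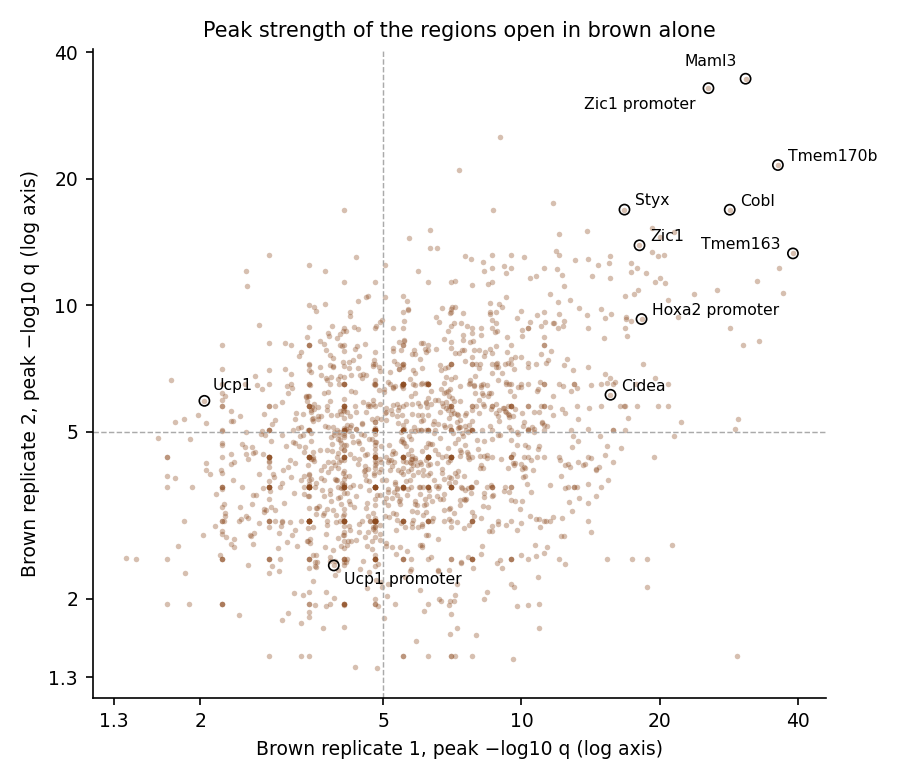
Peak −log10 q of each of the 1707 regions open in brown alone, with brown replicate 1 on the horizontal and brown replicate 2 on the vertical axis (both log axes), each point 1 region and the dashed lines at 5. The Zic1 promoter and the Maml3 intron stand at the top right with values of 25.5 to 34.6, while the Ucp1 promoter lies in the weak lower left field at 3.91 and 2.40.

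The group with the most members was at Zic1 and Zic4, which encode zinc-finger transcription factors of the dorsal somite and the neural tube. Both genes are transcribed away from each other. With members up to 50 kb apart taken as 1 run, this group was the largest run, with 4 members at chr9:91350822-91380780. It held 11 merged regions, of which 2 were open in all 6 libraries. The strongest of the 4 was the Zic1 promoter at chr9:91365726-91366055, which also lies inside the annotated Zic4 gene. Its summit was 105 bp upstream of the Zic1 start, with a −log10 q of 25.5 in brown replicate 1 and 32.8 in brown replicate 2, and it ranked second of all members. These values stand at percentiles 70.0 and 80.3 of their lists, far above those of most members. No beige or white library had a peak in this interval, but beige replicate 2 had one 525 bp downstream of the start site with a −log10 q of 7.89, where both brown libraries also had peaks. The nearest beige or white peak began 362 bp away.

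Past the 3′ end of Zic1, the member at chr9:91350822-91351432 (summit 14.613 kb downstream of the start) had values of 18.1 and 13.9, and that at chr9:91352871-91353124 (12.749 kb) had 8.07 and 5.94. The first of these carried a RUNX and the second a TEAD match. On the Zic4 side, an intronic member at chr9:91380580-91380780 had values of 9.96 and 7.50 and carried an EBF match. Within 20 kb of the Zic1 start each brown library had 13 peaks, the beige libraries 6 and 7, and the white libraries 4 and 7. A strong distal peak close to 10 kb downstream was no member, since it was also called in both beige libraries and in white replicate 2. There the −log10 q was 44.7 and 32.4 in the brown libraries, 4.43 and 8.67 in the beige libraries and 4.74 in white replicate 2. The region 15.8 kb upstream of Zic1 was called in all 6 libraries, with values of 62.2 and 28.4 in brown, 21.02 and 35.1 in beige, and 12.3 and 13.6 in white. The promoter member and that on the Zic4 side stood between regions shared by all 6 libraries, whereas no beige or white library had a peak from the 2 downstream members out to 20 kb.

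The 15 members with the highest lower −log10 q were mostly distal. The first was an intronic region of Maml3, a coactivator of Notch signalling, 75.185 kb downstream of its start at chr3:52029632-52030548. At 917 bp it was the widest of all members, its values were 30.7 and 34.6, and no beige or white peak lay within 9.459 kb. An intergenic region 54.021 kb upstream of Tmem170b had values of 36.1 and 21.5, and one 430.403 kb upstream of Cobl, an actin nucleator, had 28.4 and 16.9. A region 307.596 kb upstream of Zfp703, a transcriptional repressor, had 19.3 and 15.2. The others lay nearest to Styx (within an intron of Psmc6), Pot1a, Dut (within an intron of Fbn1), D430019H16Rik, Il17a, Tmem163, Fgf14, 4930455H04Rik (within an intron of Palmd) and Cplx2, with lower values between 13.0 and 16.8. The Tmem163 region had the highest value of any member in 1 library, at 39.0 in brown replicate 1, but 13.3 in brown replicate 2. The nearest gene is an assignment by distance and need not be the gene that a region acts on.

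Most genes had a single member. The members were nearest to 1426 of the 21827 protein-coding genes, which is 6.53%, and those with both values over 5 to 474 genes, which is 2.17%. A single member was found for 1197 of these genes, 2 members for 184, 3 for 39, 4 for 5 genes and 5 for Cobl. Of the 67 merged regions nearest to Cobl, 5 were members, spread from 182.541 kb downstream to 1058.89 kb upstream of its start. Genes with 4 members were Zfp703, Csmd1, Fzd8, Chd7 and Fezf2, and among those with 3 the strongest were at Zic1, Slc14a2, Cdh13 and Tns1. Fzd8 is a receptor for WNT ligands, Chd7 a chromatin remodeller, Fezf2 a transcription factor of the forebrain and Cdh13 a cadherin that binds adiponectin. At Fezf2, 4 of its 20 merged regions were members and none was open in beige or white alone. At Tns1, by contrast, 3 of 109 regions were members, a share of 2.75%. The Fezf2 members 67.774, 89.459 and 183.141 kb upstream of its start lay within introns of Cadps, and the other lay 4.625 kb downstream.

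Promoters made up a small part of the members, and over 50% of these promoters had no peak summit in the other cultures. The summit lay within 1 kb of a protein-coding start site in 67 members, or 3.93% (95% Clopper-Pearson interval, 3.05 to 4.96%). At 36 of these 67 no beige or white library had a peak summit within 1 kb of the same start site, although the edge of a peak may reach closer. At 20 of them all 4 beige and white libraries had one, so that the member was an additional interval of a promoter that was open in every library. The remaining 11 had such a summit in 1 to 3 of the 4 libraries.

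The 10 promoter members with the highest lower −log10 q were those of Zic1, Hhipl1, Hoxa2, Ddo, 5730596B20Rik, Sgms2, Olfr51, Galntl6, Mcpt8 and Lyve1. At Hoxa2, a regulator of hindbrain and neural crest patterning, the region chr6:52165037-52165238 had its summit 308 bp upstream of the start, with values of 18.3 and 9.26. No beige or white library had a peak summit within 1 kb of that start, and the regions open in all 6 libraries began 3.49 kb downstream and 7.59 kb upstream. The member at the promoter of 5730596B20Rik, with values of 8.64 and 9.22, lay inside the Hoxa3 gene 12.5 kb upstream of the Hoxa2 start, so that 2 members fell within this part of the Hoxa cluster. Sgms2 makes sphingomyelin, Mcpt8 is a basophil protease and Lyve1 is a hyaluronan receptor of lymphatic endothelium, and none of the 3 had a beige or white peak summit at its promoter. At Ddo, which encodes D-aspartate oxidase, all 4 beige and white libraries had a promoter peak, 64 bp away at the nearest, and at Hhipl1 2 of the 4 did.

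Members lay farther from start sites than the regions open in beige alone or white alone. The median distance to the nearest protein-coding start site was 47.3 kb (quartiles 14.7 and 120.3 kb), against 26.7 kb for beige-alone, 34.3 kb for white-alone and 29.7 kb for all merged regions. In 498 members (29.2%, interval 27.0 to 31.4%) it exceeded 100 kb, compared with 19.4% (18.2 to 20.7%) of the beige-alone and 25.9% (24.1 to 27.7%) of the white-alone regions. The interval of the members overlapped that of the white-alone regions slightly and lay above that of the beige-alone regions. The promoter share of 3.93% was below the 6.27% (5.52 to 7.09%) in beige alone and the 6.01% (5.09 to 7.04%) in white alone, and 24.3% of the regions open in all 6 libraries were promoters. By position, 51.8% of the members were intergenic (49.4 to 54.2%), 40.8% intronic and 3.46% exonic outside promoters, while 45.0% of the beige-alone (43.4 to 46.6%) and 47.3% of the white-alone regions (45.3 to 49.3%) were intergenic. These intervals cover counting error only, since regions are no replicates of a condition, and an exact permutation test of 2 libraries against 4 gives no one-sided p below 0.0667. Among regions with both values over 5 in their own pair, which were 509 in brown, 1868 in beige and 687 in white, the promoter shares were 3.54%, 6.91% and 5.82%, with intervals of 2.11 to 5.53%, 5.80 to 8.15% and 4.19 to 7.84%. Of these intervals that of the members lay below the beige-alone one and overlapped the white-alone one.

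**Figure D2:**
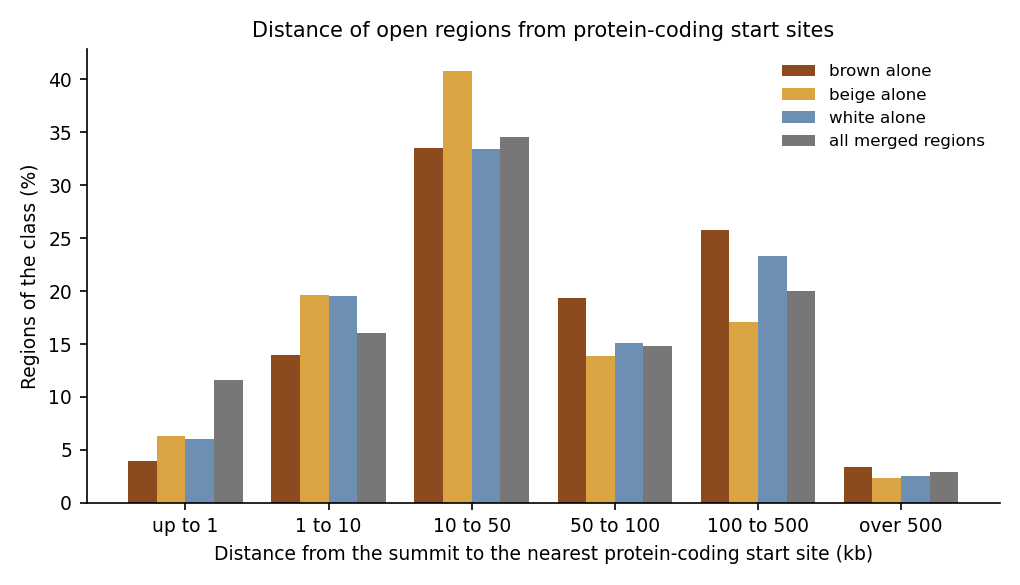
Share of regions (vertical axis, %) by the distance from their summit to the nearest protein-coding start site (horizontal axis, kb), for regions open in brown, beige or white alone and for all merged regions. Brown-alone regions have the lowest bar up to 1 kb (3.93%) and the highest bars from 50 kb outwards, with 25.8% between 100 and 500 kb against 17.1% in beige alone.

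Members neighboured each other more often than their share of all regions, but the great majority stood singly. Among the 3414 nearest merged regions on either side of the members, 58 (1.70%) were members themselves, 1.94 times the share of members among all merged regions. The same ratio was 1.21 for beige-alone and 2.03 for white-alone regions, so that it was not particular to brown. With gaps of up to 50 kb, 235 members (13.8%) lay in 113 runs of 2 or more and 25 members in 8 runs of 3 or more. After the Zic1 run, the 4 runs with the strongest members had 3 members each and lay at 1700025G04Rik and Edem3, Trim29, Dscam, and Filip1l and Tmem30c. The Trim29 run spanned 79.015 kb and held 11 merged regions, 4 of them open in all 6 libraries. In the Dscam run, an adhesion molecule of neurons, 3 of 5 merged regions were members and none was open in all 6 libraries, but 2 of the 3 were adjoining intervals 8 bp apart. The members were spread over all 19 autosomes and the X chromosome. Their share of merged regions was highest on chromosomes 14 (1.13%), 1 (1.10%, interval 0.931 to 1.28%) and 12 (1.08%) and lowest on the X chromosome (18 members, 0.523%, interval 0.310 to 0.825%). The Y chromosome held none.

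Genes of dermomyotome and depot patterning had members at a share of regions whose interval includes that of all regions. Of 37 dermomyotome and depot patterning genes, 9 were nearest to a member, or 24.3%, beside 6.53% of all genes. Such genes have many open regions, so the share of regions is the closer comparison, and 12 of the 840 merged regions at these genes were members (1.43%, interval 0.740 to 2.48%) beside 0.878% of all merged regions. The same regions were open in beige alone in 1.55% and in white alone in 1.43%. Beyond Zic1 and Zic4 these genes included Eya4 with 2 members, Pax7, Sim2, Lbx1, Irx3 and Tcf21. The Eya4 region 191.291 kb upstream, at a cofactor of somite and muscle development, had values of 8.64 and 8.82. At Pax7, the muscle stem cell factor also used by brown fat precursors, a region 7.772 kb upstream had 5.42 and 7.05, with a beige or white peak 497 bp away.

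T-box and limb genes, which pattern the trunk and limbs, had members at 6 of 14 genes (42.9%), beside 6.53% of all genes. Among the 374 regions at the listed genes, 8 were members (2.14%, interval 0.928 to 4.17%), beside 0.878% of all merged regions. Tbx18 had a member 197.876 kb downstream with values of 15.5 and 12.6 and a weaker one, and Tbx15 had 2, of which the distal one 229.699 kb downstream had 7.96 and 7.24. Tbx1 had a member in its promoter (3.02 and 5.88), where no beige or white library had a peak summit within 1 kb of the start. Tbx20, Pitx1 and Isl1 had 1 member each, with lower values between 4.00 and 5.94. Regions open in white alone took a similar share of the same regions, 2.41%, beside 1.22% of all merged regions. Those open in beige alone took 1.87%, beside 1.94% of all. Of 39 Hox genes, Hoxa2, Hoxb2 and Hoxc5 were nearest to a member (7.69%, beside 6.53% of all genes). The Hox list had 4 members in 210 regions (1.90%, interval 0.521 to 4.80%), beside 0.878% of all merged regions. The same Hox regions were open in beige alone in 7 cases (3.33%) and in white alone in 2 (0.952%). The Hoxb2 promoter member was weak, with 2.37 and 4.23, and a beige or white peak lay 523 bp away, while a Hoxc5 member lay 7 bp from a beige or white peak.

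Of the 34 genes of the thermogenic machinery, 5 were nearest to a member, or 14.7%, beside 6.53% of all genes. Of their 369 regions 6 were members (1.63%, interval 0.599 to 3.51%), and this interval includes the 0.878% of all merged regions. The same regions were open in beige alone in 1.90% and in white alone in 1.36%. Ucp1 had 2 of them. Its promoter member at chr8:83290153-83290349, 124 bp upstream of the start, had values of 3.91 and 2.40, which stand at percentiles 10.1 and 3.16 of their lists. The second, 5.768 kb upstream, had 2.04 and 5.91. No beige or white library had a peak summit within 1 kb of the Ucp1 start. The strongest peak of the locus, 11.7 kb upstream, was in contrast shared by all 6 libraries, with a −log10 q of 112 and 77.9 in brown, 55.4 and 58.6 in beige, and 47.1 and 22.5 in white. At 2.5 kb upstream both brown and both beige libraries had a peak and the white libraries none. Cidea, a lipid droplet protein of brown adipocytes, had a member 7.123 kb upstream with 15.6 and 6.11, which was the only one of the 5 genes with both values over 5. Ppargc1a, the coactivator of mitochondrial biogenesis, had 1 member 323.904 kb downstream (5.52 and 4.35). Fabp3, a fatty acid binding protein, had 1 at 1.676 kb upstream (3.75 and 6.72), and Aqp7, the glycerol channel, had 1 at 16.009 kb upstream (3.93 and 4.16).

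The regulators of brown adipocyte fate gave the most members of any list and also had the most merged regions. Members were nearest to 14 of 31 genes (45.2%), beside 6.53% of all genes. Among the 1351 regions at the listed genes, 23 were members (1.70%, interval 1.08 to 2.54%), beside 0.878% of all merged regions. The same regions were open in beige alone in 2.44%, where 1.94% of all merged regions were, and in white alone in 1.48%, beside 1.22% of all. Thrb, the thyroid hormone receptor beta, and Foxp1, a repressor of the thermogenic program, had 3 members each. Ebf2, Ppara, Esrrg, Tle3 and Zfp521 had 2 each, and Esrrb, Cebpb, Zfp423, Hlx, Nfib, Rreb1 and Rxrg 1 each. Both values exceeded 5 at 3 of the 14 genes. The Thrb region 81.062 kb downstream had 8.17 and 8.82 and lay 8.667 kb from any beige or white peak, the Zfp423 intronic region had 7.08 and 9.87, and the Nfib region 368.33 kb downstream had 10.3 and 6.48. At Ebf2, the early marker of brown precursors, both members were intronic with 9.48 and 4.77 at one and 3.11 and 4.11 at the other. Of 11 beige marker genes, Fgf9 alone was nearest to members (9.09%, beside 6.53% of all genes). Its 2 members lay 403.295 and 246.24 kb downstream. They made up 1.32% of the 152 regions at the beige markers (interval 0.160 to 4.67%), beside 0.878% of all merged regions.

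For signalling pathways the intervals of the share of regions include the 0.878% of all merged regions. Members were nearest to 22.9% of BMP and TGF-beta, 18.2% of FGF and 28.1% of WNT genes, beside 6.53% of all genes. In the same order, their regions were open in beige alone in 1.78%, 1.19% and 0.899%, and in white alone in 2.08%, 1.39% and 1.41%. Of 1012 regions at 35 BMP and TGF-beta genes, 10 were members (0.988%, interval 0.475 to 1.81%), with 2 each at Acvr2a, an activin receptor, and Id2, a target of BMP signalling. Of 504 regions at 22 FGF genes, 5 were members (0.992%, interval 0.323 to 2.30%). Of 779 regions at 32 WNT genes, 10 were members (1.28%, interval 0.617 to 2.35%), led by Wnt5a with 2, and by Rspo3 and Ror2. The Rspo3 region, 172.755 kb upstream of this WNT agonist, had values of 7.83 and 8.82.

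Markers of the cell types in such cultures held 0 to 2 members each, and the interval of every list includes the 0.878% of all merged regions. Adipocyte markers had 2 members in 225 regions (0.889%), at Cidec and Lpl, progenitor markers 1 in 344 (0.291%), at Col3a1, and endothelial markers 2 in 253 (0.791%), at Kdr and Vwf. Skeletal muscle markers had 2 in 148 (1.35%), at Pax7 and Chrna1, the latter a muscle acetylcholine receptor subunit with values of 13.9 and 9.48. Macrophage markers had 1 in 97 (1.03%), at Tyrobp. Smooth muscle and pericyte markers had 0 in 170 regions and Schwann and neural markers 0 in 170, and the interval reaches up to 2.15% in each. The promoters of 17 and 16 of 18 adipocyte markers were open in the brown libraries, against 15 to 16 in the others. Skeletal muscle marker promoters were open for 8 and 4 of 26 in brown, 5 and 11 in beige, and 5 and 8 in white, and macrophage marker promoters for 3 of 15 in each brown library and 3 to 4 in the others. The part of such cells in the members was not tested.

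**Figure D3:**
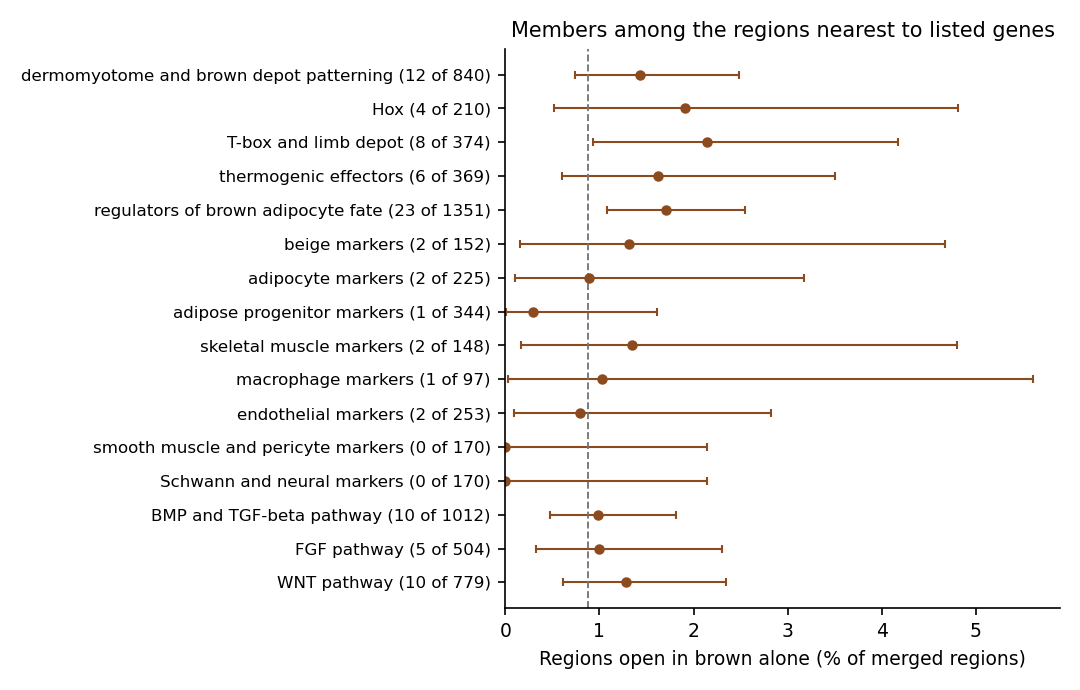
Share of the merged regions nearest to the genes of each list that were open in brown alone (horizontal axis, %), with 95% Clopper-Pearson intervals and the number of members in parentheses. The dashed line marks the 0.878% of all merged regions, and the intervals of the T-box and limb list (from 0.928%) and of the fate regulators (from 1.08%) begin above it.

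The windows around the summits of the members held AP-1, TEAD and RUNX motifs more often than those of beige-alone or white-alone regions. AP-1, the Fos and Jun dimer, had its motif TGANTCA in 511 of 1707 members, or 29.9% (27.8 to 32.2%), against 15.2% (14.1 to 16.4%) of the beige-alone and 20.1% (18.5 to 21.8%) of the white-alone regions, and 21.2% of all merged regions. RUNX factors, known from bone and blood development, had TGTGGTT in 8.44% (7.16 to 9.86%) of the members, against 4.81% (4.15 to 5.54%) and 4.87% (4.04 to 5.81%), and 5.36% of all merged regions. TEAD factors, the DNA-binding partners of YAP and TAZ, had ACATTCC in 7.09% (5.92 to 8.41%), against 3.31% (2.76 to 3.93%) in beige alone and 5.33% (4.47 to 6.31%) in white alone, and 4.29% of all. For TEAD the intervals of members and white-alone regions overlapped. HOX/PBX (TGATTNAT) matched 5.04% of the members (4.05 to 6.18%), 3.57% of the beige-alone (3.00 to 4.21%), 2.56% of the white-alone (1.97 to 3.28%) and 3.68% of all regions. Here the intervals of members and beige-alone regions overlapped slightly. EBF matched 31 members or 1.82% (1.24 to 2.57%), with overlapping intervals in beige alone (1.24%) and white alone (1.13%), and 1.40% of all. TGATTCAT matches both the AP-1 and the HOX/PBX letters, as it does in the printed Cobl sequence, so such a window counted for both.

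The stronger members showed the same order. Among regions with both values over 5 in their pair, AP-1 matched 34.8% of 509 members (30.6 to 39.1%), 11.6% of 1868 beige-alone (10.2 to 13.2%) and 22.6% of 687 white-alone regions (19.5 to 25.9%). RUNX matched 10.0% (7.55 to 13.0%), 4.71% (3.80 to 5.77%) and 4.95% (3.45 to 6.85%), and TEAD 8.84% (6.52 to 11.7%), 2.89% (2.18 to 3.76%) and 6.11% (4.44 to 8.17%). Members outside promoters had an AP-1 share of 30.5%, against 23.2% of all merged regions outside promoters. Of the 58714 regions open in all 6 libraries 26.6% held the AP-1 motif. Promoters made up 24.3% of these regions, and their AP-1 share outside promoters was not computed. The 26.6% is therefore no match for the 30.5% of members outside promoters, and an AP-1 share particular to brown is not shown against shared regions.

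Among families with 10 or more matching members, 5 were the least frequent relative to all merged regions. They were KLF/SP (CCCCGCCC), the E-box CATATG, the homeobox core TAATTA, C/EBP (TTNCNNAA) and the GATA family, whose consensus was AGATAA. The ratio was close to equal for C/EBP (0.938) and GATA (0.966). The consensus of C/EBP, the family that drives adipocyte differentiation, matched 35.1% of the members (32.9 to 37.5%), against 46.8% (45.2 to 48.4%) of the beige-alone, 41.2% (39.3 to 43.3%) of the white-alone and 37.5% of all merged regions. This consensus is short and leaves several bases open, so a match need not be a C/EBP site. The share expected in windows of random sequence was not computed. The homeobox core matched 2.28% (1.63 to 3.11%), against 4.92% (4.25 to 5.66%) in beige alone and 3.44% in white alone, and 2.72% of all. CATATG matched 2.46% (1.78 to 3.31%), against 3.41%, 3.91% and 3.38%. GATA matched 7.79% (6.56 to 9.17%), against 8.70%, 12.1% and 8.07%. KLF/SP, whose GC-rich motif is typical of promoters, matched 1.35% (0.856 to 2.01%), against 1.98%, 0.882% and 3.77%. The windows had a median GC content of 49.8% in the members, 47.3% in beige alone, 48.8% in white alone and 50.2% in all merged regions. Repeats covered over 50% of the window in 4.39% of the members (3.47 to 5.48%), 8.49% of the beige-alone (7.62 to 9.42%) and 4.75% of the white-alone regions. The part of base composition in these differences was not tested.

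**Figure D4:**
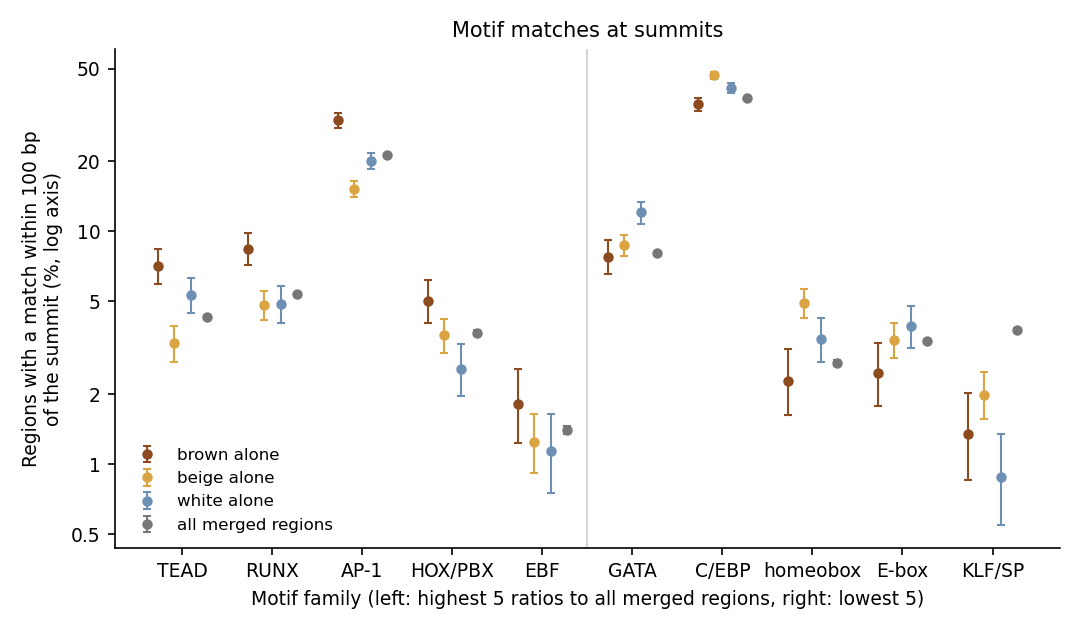
Share of regions with a motif match within 100 bp of the strongest summit (vertical axis, %, log axis) for 10 motif families, with 95% Clopper-Pearson intervals, in regions open in brown, beige or white alone and in all merged regions. Brown-alone regions lie above the other 3 sets for the 5 families on the left, with AP-1 at 29.9% and RUNX at 8.44%, and below beige-alone and all merged regions for C/EBP at 35.1%. Families were chosen by their ratio to all merged regions, so their standing against that set follows from the choice. Intervals of brown-alone regions overlap those of white alone for TEAD, of beige alone for HOX/PBX and of both for EBF.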

How the data were processed

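The authors trimmed adaptors with Trimmomatic 0.36, mapped them against mm10 in BWA 0.7.17 and ran MACS2 2.2.8 on each library without pooling, with a q value under 0.05. Per the labels, SAMtools, deepTools and DESeq2 were also used in the series. The deposited lists hold a score, the fold enrichment of the summit as a ratio over local background, and its −log10 p and −log10 q as the authors' caller gave them. Of these values the −log10 q and the fold were used here, each only within its own library. Brown libraries are described by their labels only.

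Summits that shared an interval were counted once, at the highest −log10 q, and overlapping or touching intervals were merged with Python 3.11.15 (pandas 2.3.3, numpy 2.4.6). Promoters were summits within 1 kb of a protein-coding start site in the basic set of GENCODE M21. A summit in several genes was given to the nearest start site. Motif families of 33 consensus sequences were searched in windows of 100 bp to each side of the strongest summit, read with pysam 0.24.0. Shares carry 95% Clopper-Pearson intervals (scipy 1.17.1), which cover counting error only. The merging, the classes and the motif search were tested on simulated data. No test compared conditions, since the peak lists chose the members. The labels call the libraries repeats and do not say whether they came from separate animals.

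The genes named were the 15 strongest members by the lower −log10 q, the 10 genes with the most members, the 10 strongest promoter members, listed depot, thermogenic, fate and beige genes with a member, the 5 largest runs, and up to 4 examples from other lists. Motif families were the 5 with the highest and the 5 with the lowest ratio to all merged regions among those with 10 or more matching members. The members and lists were chosen with earlier results of these data known. Members on chromosome 18 are given without sequence. One listed gene is not reported here. Alternatives changed the q threshold, list length, merging gap, promoter distance, run gap, gene assignment, window and summit, and left out each library.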

Additional observations from a re-analysis of the deposited data

How the results depend on the processing

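No paired analysis was possible because the comparisons rest on no test. The number of regions open in brown alone was 1223 with q under 0.00001 in all lists, 2225 with equally long lists and 1587 with peaks merged over gaps of up to 250 bp, all within 1.5 times the 1707 reported. It fell to 509, and the genes to 474, with that threshold in the brown lists only. Without 1 library it ranged from 2016 to 15528. Without beige replicate 2 it was 2745 with 2162 genes, without brown replicate 1 it was 15528 with 7089 genes and without brown replicate 2 it was 10830 with 5992 genes, so that agreement of both brown libraries removed most candidates. The genes ranged from 1659 to 7089 and the median width from 162 to 258 bp. The intergenic share ranged from 49.4 to 55.2%, and the neighbour share from 1.79 to 15.6%. The median width was 293 bp at q under 0.00001 in all lists, 277 bp with it in brown only, 263 bp with equal lists and 273 bp with wider merging. The neighbour share was 2.37%, 0.786%, 2.38% and 1.26% in the same order, which is 2.62, 2.73, 1.86 and 1.30 times the share of members under that setting. The promoter share was 2.96% with wider merging and 7.09% within 3 kb. The median distance to a start site was 16.97 kb with all GENCODE genes. Members in runs of 3 or more numbered 13 at 25 kb and 87 at 100 kb. The cause was not tested where the setting itself does not give it. Of 60 motif values under alternatives, 37 stayed within the reported interval, and 50 or 250 bp windows, which hold fewer or more letters, moved most of the others. With those windows AP-1 matched 22.03% and 38.6% of the members, against 10.8% and 22.2% in beige alone and 13.9% and 28.2% in white alone. Values at −log10 q over 5 and outside promoters were added after seeing the data. The lists hold no reads, so a missing peak can reflect depth.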

Other observations

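Nkx2-1, a transcription factor of thyroid, lung and forebrain, was named after its values were seen. It had a run of 3 members within 15.476 kb, and the lower −log10 q of these members lay between 3.52 and 4.06. Of the 3, 2 were at its promoter, with values of 10.6 and 4.06 at one and 3.72 and 3.52 at the other, and no beige or white library had a peak summit within 1 kb of that start site.

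The CTCF motif (CC, 3 bases of any kind, AGGGGGC), also chosen after its values were seen and held by fewer than 10 members, matched 5 members (0.293%), against 3.86% of the beige-alone, 0.672% of the white-alone and 1.62% of all merged regions.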
